A study of Mus musculus with 8 samples.

Results

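The genes of oxidative phosphorylation were followed in whole aortas of ApoE-/- and wild-type (WT) mice. They were found by symbol, as rows of the count files that begin with Ndufa, Ndufb, Ndufc, Ndufs, Ndufv, Uqcr, Cox4 to Cox8, Atp5 or mt-, or that read Sdha, Sdhb, Sdhc or Sdhd. Of 21859 gene rows, 109 matched. They comprised 83 rows for structural subunits encoded in the nucleus, 13 mRNAs encoded in mitochondrial DNA, 9 factors that help to build or join the complexes, 3 testis-type isoforms and 1 pseudogene of Cox5b. The aortas came from 4 male ApoE-/- mice, which lack apolipoprotein E and develop atherosclerotic plaques, and from 4 male WT mice of the C57BL/6 background. All 8 mice were 40 weeks old and ate chow, and each gave 1 library of ribodepleted total RNA. Between 18375898 and 23940156 read pairs were counted on genes per library.

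Oxidative phosphorylation is carried out by 5 protein complexes of the inner mitochondrial membrane. Complexes I and II pass electrons from NADH and succinate to ubiquinone, complex III passes them to cytochrome c, complex IV passes them to oxygen, and complex V, the ATP synthase, uses the resulting proton gradient to make ATP. Most subunits are encoded by nuclear genes, whereas a small core of complexes I, III, IV and V is encoded by mitochondrial DNA, and complex II is wholly nuclear. Complex IV is unusual in having subunits with a heart-type isoform, made in heart, in skeletal muscle and, for some subunits, in brown fat, beside a form made in most tissues. The aorta is made mainly of smooth muscle and is wrapped in perivascular fat, which in the thoracic part resembles brown fat.

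Levels are given as CPM, counts scaled to a common library size by the TMM method. Apoe, the deleted gene, had 14.7 to 36.3 CPM in the ApoE-/- group, against 536 to 857 CPM in WT (log2 fold change -4.83, SE 0.371, adjusted p = 0.0141, quasi-likelihood test of edgeR). Of the 15077 genes kept by the filter on low counts, 70 passed an adjusted p of 0.05. The contractile smooth muscle list summed to 6048 CPM in ApoE-/- replicate 1 and to 13760 to 26570 CPM in the other 7 mice. In the same mouse the list for sympathetic neurons and adrenal medulla summed to 4379 CPM, against at most 788.8 CPM in the others. Values without this mouse are therefore given beside the counts of members called and the medians of gene groups that they change.

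None of the members passed the test of genotype. Of the 109 members, 103 passed the filter on low counts, and 0 of these 103 had an adjusted p under 0.05, against 0.464% of all genes tested. At an unadjusted p under 0.05, 5 members remained, against 11.4% of all genes. DESeq2, the tool the study used, called 4 members, namely Cox6a2, mt-Nd4, mt-Cytb and mt-Atp6, all with lower values in ApoE-/- mice. DESeq2 called 4.29% of all the genes for which it gave an adjusted p, and 1.45% as lower. Without ApoE-/- replicate 1, edgeR called 1 member, Cox6a2, and 3.91% of all genes tested. In that fit 11 members had an unadjusted p under 0.05, against 18.7% of all genes. They were 9 of the mitochondrial mRNAs, Cox6a2 and Ndufab1. All had lower values in ApoE-/- mice except mt-Co3, at a log2 fold change of 6.07, which had 4835 read pairs in ApoE-/- replicate 2.

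The nuclear subunits differed little between the genotypes. Of their 82 tested members, 67 had a log2 fold change below 0 and 15 above, with a median of -0.10, against a median of 0.05 for all genes tested. Without ApoE-/- replicate 1 the median was -0.16 for the subunits and 0.01 for all genes. The subunit median was -0.42 without ApoE-/- replicate 4, -0.22 without WT replicate 2 and -0.20 without WT replicate 3, and it was above 0 without ApoE-/- replicate 3 (0.12), WT replicate 1 (0.01) or WT replicate 4 (0.02). Without ApoE-/- replicate 2 it was -0.004. The standard error of a subunit's log2 fold change had a median of 0.368, against 0.203 for all genes, and the change exceeded its own standard error for 6 of 82, namely Ndufab1, Ndufa4l2, Cox6a2, Atp5g2, Atp5l and Atp5md.

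**Figure D1:**
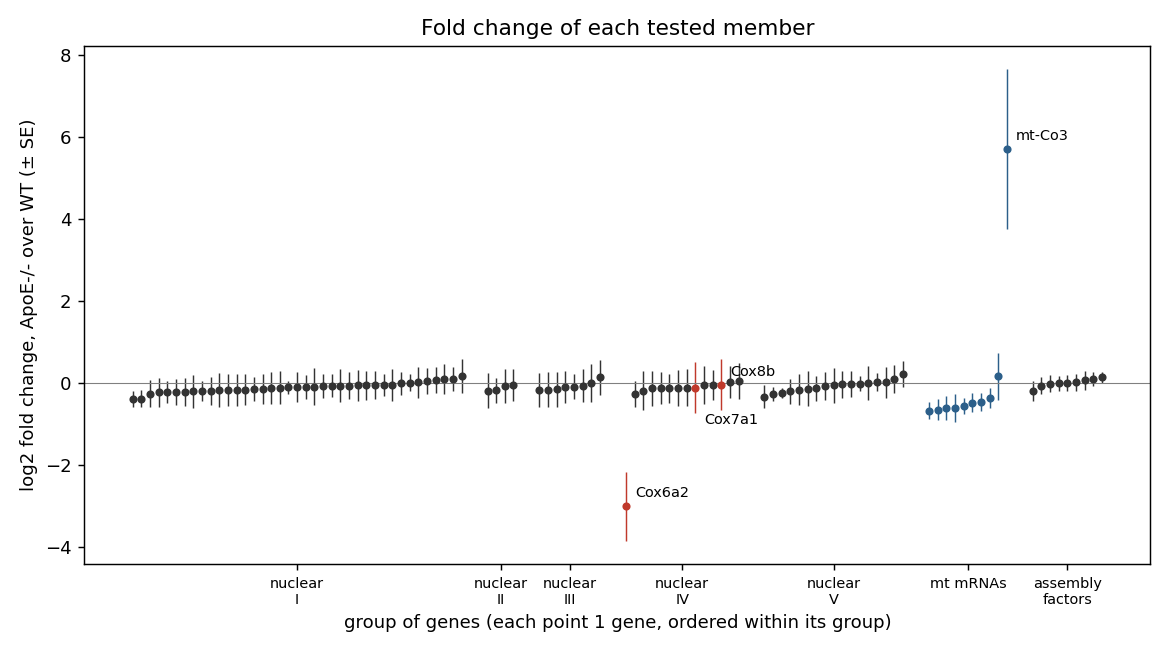
Log2 fold change of each tested member (vertical axis, ApoE-/- over WT, bars show the SE), grouped along the horizontal axis by complex for nuclear subunits, then the mitochondrial mRNAs (blue) and the assembly factors, with the heart-type isoforms in red. Nuclear subunits lie near 0 with a median of -0.10, apart from Cox6a2 at -3.01, and 8 of 10 mitochondrial mRNAs lie below 0.

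Complex I is the largest of the complexes, and all 39 rows for its nuclear subunits were tested. They include Ndufb1-ps, which the annotation holds as a non-coding RNA. Of these, 32 had a log2 fold change below 0 and the median was -0.10, or -0.17 without ApoE-/- replicate 1. The extremes were Ndufab1, the mitochondrial acyl carrier protein, at -0.40 (SE 0.188, adjusted p = 0.497) and Ndufa1, a small membrane subunit, at 0.16 (SE 0.417, adjusted p = 0.936). Ndufab1 had 34.9, 31.9, 21.5 and 33.5 CPM in ApoE-/- mice 1 to 4 and 42.4, 30.1, 42.8 and 45.1 CPM in WT mice 1 to 4. WT replicate 2 lay within the ApoE-/- values, so the groups overlapped. Ndufs1, the iron-sulfur subunit that takes part in electron entry, had 257, 188, 116 and 349 CPM in the ApoE-/- mice and 338, 193, 208 and 320 CPM in the WT mice. Ndufv1, which carries the NADH binding site, had 240, 191, 96.1 and 374 CPM against 335, 172, 192 and 320 CPM. Both genes had their lowest value in ApoE-/- replicate 3 and their highest in ApoE-/- replicate 4, so that the spread within the ApoE-/- group enclosed the whole WT group.

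The 4 subunits of complex II, which is also an enzyme of the citric acid cycle, had log2 fold changes from -0.19 (Sdhb, the iron-sulfur subunit, SE 0.429) to -0.06 (Sdha, the flavoprotein, SE 0.393). Their smallest unadjusted p was 0.567, for the membrane anchor Sdhc. Sdha had 617, 508, 259 and 950 CPM in the ApoE-/- mice and 747, 435, 456 and 790 CPM in the WT mice. The other membrane anchor, Sdhd, had a log2 fold change of -0.08 (SE 0.413). Again the 4 ApoE-/- values spanned the 4 WT values.

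In complex III, 6 of 8 subunits had a log2 fold change below 0 and the median was -0.09, or -0.16 without ApoE-/- replicate 1. Uqcrc1, a core protein, was lowest at -0.18 (SE 0.411, adjusted p = 0.926), and Uqcr10, a small subunit, was highest at 0.13 (SE 0.432, adjusted p = 0.953). Uqcrfs1, the Rieske iron-sulfur protein that hands electrons onward, had a log2 fold change of -0.16 (SE 0.429). Its values were 232, 142, 77.0 and 314 CPM in the ApoE-/- mice and 263, 136, 174 and 280 CPM in the WT mice, and the groups overlapped.

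In complex V, 13 of 17 tested subunits had a log2 fold change below 0, with a median of -0.06, or -0.17 without ApoE-/- replicate 1. Atp5b, the catalytic beta subunit, and Atp5a1, the alpha subunit, had log2 fold changes of -0.14 (SE 0.429) and -0.17 (SE 0.375). Atp5b had 1583, 1101, 574 and 2298 CPM in the ApoE-/- mice and 2025, 1070, 1144 and 1894 CPM in the WT mice. Atp5md, a small membrane subunit also known as DAPIT or Usmg5, was lowest at -0.34 (SE 0.278, adjusted p = 0.768). Atp5l, subunit g of the membrane part, had the smallest unadjusted p of the complex, 0.0602, with a log2 fold change of -0.25 (SE 0.117, adjusted p = 0.477). Atp5g1, one of 3 genes for the same mature c-ring protein, was highest at 0.21 (SE 0.320), a value that came with 17.5 CPM in ApoE-/- replicate 1 beside 6.71 to 7.35 CPM in ApoE-/- replicates 2 to 4 and 7.31 to 9.38 CPM over the WT replicates. Without ApoE-/- replicate 1 its log2 fold change was -0.24.

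The differences between mice of one genotype were larger than those between genotypes, and they ran through all 5 complexes together. Relative to each gene's mean over the 8 mice, the median nuclear subunit stood at 0.18, -0.28, -1.01 and 0.74 on the log2 scale in ApoE-/- mice 1 to 4, and at 0.43, -0.26, -0.21 and 0.45 in WT mice 1 to 4. ApoE-/- replicate 3 had the lowest value of the 8 for 77 of the 82 subunits (93.9%), against 20.0% of all genes tested. ApoE-/- replicate 4 had the highest value for 72 of 82 (87.8%), against 21.5% of all genes tested. For 74 subunits (90.2%) the 4 highest mice were ApoE-/- replicates 1 and 4 and WT replicates 1 and 4, against 9.18% of all genes tested. These mice were singled out after their values were seen, and the shares are a description.

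**Figure D2:**
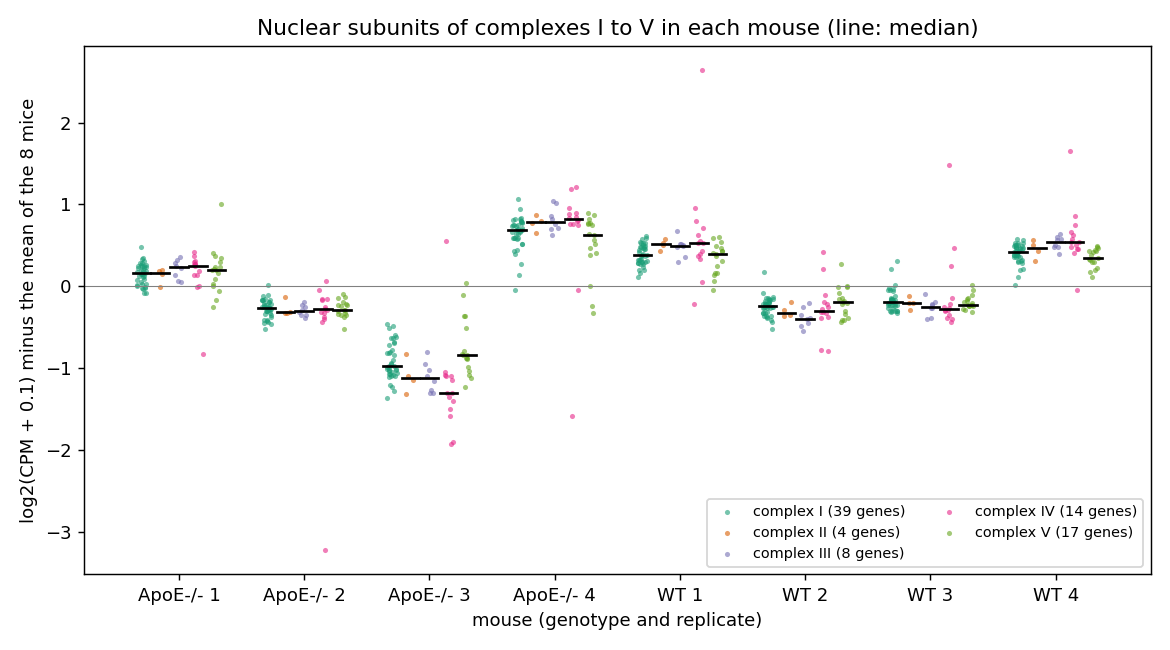
Level of each of the 82 tested nuclear subunits in each mouse (horizontal axis), as log2(CPM + 0.1) minus the gene's mean over the 8 mice (vertical axis), coloured by complex with a black line at each complex's median. The complexes move together, lowest in ApoE-/- replicate 3 (medians -0.84 to -1.30) and highest in ApoE-/- replicate 4 (medians 0.63 to 0.82).

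The size of this swing differed between subunits. The ratio of the highest to the lowest of the 8 mice had a median of 3.29 over the nuclear subunits and of 1.86 over all genes tested, leaving out genes with 3 or fewer counts in any mouse. It was largest for Cox8b and Cox7a1, at 8.68 and 8.65. It was smallest for Atp5l, at 1.46, and for Atp5g2, at 1.54. Complex IV had a median ratio of 4.13, complex III 3.92, complex II 3.85, complex I 3.11 and complex V 2.77. For the assembly factors, which are not parts of the finished complexes, the median ratio was 1.75, close to that of all genes.

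Most markers of fat varied over the same mice, but not all. Of the 12 genes of the general adipocyte list, 10 had their lowest value in ApoE-/- replicate 3 and 6 their highest in ApoE-/- replicate 4. The list summed to 9564, 6213, 4652 and 15260 CPM in ApoE-/- mice 1 to 4 and to 11740, 8295, 8567 and 14100 CPM in WT mice 1 to 4. Of the 10 genes of the brown adipocyte list, 7 had their lowest value in ApoE-/- replicate 3 and 0 their highest in ApoE-/- replicate 4. Ucp1, the uncoupling protein that defines brown adipocytes, had 1071, 410, 209 and 899 CPM in ApoE-/- mice 1 to 4 and 1682, 596, 754 and 2540 CPM in WT mice 1 to 4. Within each genotype its higher values were in replicates 1 and 4, as for the nuclear subunits. Cidea, a lipid droplet protein of brown adipocytes, had 378, 238, 97.97 and 519 CPM against 402, 176, 225 and 519 CPM. Prdm16, a regulator of brown fat identity, was highest in the ApoE-/- mouse with the lowest subunits, with 53.5, 121, 143 and 61.4 CPM against 82.9, 69.0, 139 and 74.3 CPM, and the coactivator Ppargc1a was lowest in ApoE-/- replicate 2. The whole brown adipocyte list summed to 727 to 2157 CPM in the ApoE-/- group, against 1296 to 4243 CPM in WT. Of its 10 genes, 9 had a log2 fold change below 0, with a median of -0.66, or -0.84 without ApoE-/- replicate 1. The groups overlapped for all of them. edgeR called 0 and DESeq2 called 1, Ppargc1a, against 1.45% of all genes as lower. The contractile smooth muscle list stood in another order, with 6048, 26570, 24520 and 15510 CPM in ApoE-/- mice 1 to 4 and 19270, 19440, 25770 and 13760 CPM in WT mice 1 to 4, so that within each genotype replicates 1 and 4 were the lowest. All 22 fat markers were above the filter on low counts, and the part of these lists in the swing of the subunits was not tested. In whole tissue, fewer cells of a type and less RNA per cell cannot be told apart.

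Levels between genes were compared in WT mice as CPM per kilobase of annotated exon. This length includes exons of minor transcripts, so genes with long alternative exons come out low. Cox8b stood first, with a mean of 474 CPM per kilobase (range 224 to 704), followed by Atp5b (362, range 253 to 478), Cox6a1 (341, range 241 to 464), Atp5a1 (328, range 237 to 424) and Cox8a (311, range 225 to 404). The ranges of these 5 genes overlapped, so that their order did not exceed the spread between mice. Atp5g2 and Atp5g1 stood last, at 1.44 and 1.71 CPM per kilobase. Of the 3 c-ring genes, Atp5g3 made up 92.2% to 93.8% of the summed level in WT mice and 91.5% to 95.6% in ApoE-/- mice. Of the 50-base windows of Atp5g2 and Atp5g1, 38.3% and 11.1% also occur in transcripts of other genes, against 0% for Atp5g3, so the uniquely counted levels of Atp5g2 and Atp5g1 are uncertain.

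The mRNAs encoded in mitochondrial DNA had lower values in the ApoE-/- mice, with log2 fold changes of -0.68 to -0.37 in 8 of the 10 tested, but none passed the test in edgeR. These genes are transcribed as long polycistronic RNAs from both strands of the circular genome and then cut apart. As a sum they took 5.16%, 3.61%, 2.84% and 4.57% of all counts in ApoE-/- mice 1 to 4 and 6.92%, 5.52%, 5.78% and 6.68% in WT mice 1 to 4. Every ApoE-/- mouse lay below every WT mouse. The share of read pairs not assigned to a gene, for any reason, also differed by genotype. It was 66.5%, 67.7%, 67.7% and 64.4% in ApoE-/- mice 1 to 4 and 69.8%, 70.1%, 71.9% and 72.1% in WT mice 1 to 4. Its part in the lower mitochondrial share was not tested. Of the 13 mRNAs, 10 were tested, and the median was -0.52, or -0.57 without ApoE-/- replicate 1. The groups did not overlap for 4 of the 10, namely mt-Nd3, mt-Nd4, mt-Cytb and mt-Co1, each lower in ApoE-/- mice, against 3.30% of all genes tested.

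mt-Co1, which encodes the catalytic subunit of complex IV, was the most abundant, with 28200, 19110, 14450 and 28310 CPM in the ApoE-/- mice and 38540, 30730, 32070 and 35970 CPM in the WT mice (log2 fold change -0.61, SE 0.338, adjusted p = 0.595). The highest ApoE-/- mouse lay under the lowest WT mouse. mt-Cytb, the only subunit of complex III encoded there, had 6363, 5059, 3752 and 6311 CPM against 9059, 6851, 8126 and 9712 CPM. Its log2 fold change was -0.65 (SE 0.267, adjusted p = 0.389, and 0.0353 by DESeq2).

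Of the 7 complex I genes, 6 had a log2 fold change below 0, and mt-Nd4l, with few counts, was at 0.16 (SE 0.580, adjusted p = 0.957). The groups did not overlap for mt-Nd4 and mt-Nd3. mt-Nd4 had 1538, 1683, 1607 and 1203 CPM in the ApoE-/- mice and 2293, 1739, 2379 and 2474 CPM in the WT mice (log2 fold change -0.56, SE 0.201, adjusted p = 0.309, and 0.0275 by DESeq2). WT replicate 2 was only just above the highest ApoE-/- mouse. mt-Nd1 had a log2 fold change of -0.615 (SE 0.296, adjusted p = 0.505), with 7905, 5823, 3951 and 6757 CPM in the ApoE-/- mice and 10550, 7506, 8274 and 11100 CPM in the WT mice. mt-Nd2 was at -0.49 (SE 0.233), mt-Nd5 at -0.47 (SE 0.223) and mt-Nd6, the only one of these genes read from the other strand, at -0.37 (SE 0.235). For mt-Nd1, mt-Nd2, mt-Nd5 and mt-Nd6 the groups overlapped, and ApoE-/- replicate 1 was above WT replicate 2 in each. mt-Nd3 had the smallest p of the 10 tested in edgeR, with 10.7, 10.8, 10.6 and 10.9 CPM in the ApoE-/- mice and 16.7, 19.7, 21.6 and 10.9 CPM in the WT mice (log2 fold change -0.68, SE 0.200, unadjusted p = 0.00907, adjusted p = 0.195, and 0.0560 by DESeq2). WT replicate 4 was level with the ApoE-/- mice.

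The remaining mitochondrial genes had almost no counts, although they lie on the same polycistronic RNAs. mt-Co2 had 4 to 12 read pairs per library, mt-Nd4l 2 to 17, and mt-Atp8 had 1 pair in WT replicate 1 and 0 elsewhere. mt-Atp6 had 5, 2, 5 and 9 pairs in the ApoE-/- mice and 21280, 4, 3 and 5016 pairs in the WT mice. WT replicates 1 and 4 were thus high and the other WT libraries were at the ApoE-/- level, and the DESeq2 call of this gene (adjusted p = 6.17e-06) rests on those libraries. mt-Co3 had 213, 4835, 9 and 21 pairs in the ApoE-/- mice and 32, 27, 15 and 13 pairs in the WT mice. Its fitted log2 fold change of 5.71 (SE 1.94, adjusted p = 0.274) came from ApoE-/- replicate 2.

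The nuclear genome holds copies of stretches of mitochondrial DNA, and reads of 50 bases that match both places cannot be placed uniquely. The share of each gene's 50-base windows that also occur in an annotated transcript of another gene was 100% for mt-Co2, 99.9% for mt-Co3, 99.5% for mt-Atp6, 98.8% for mt-Nd4l and 98% for mt-Nd3. The top match of each was an unprocessed pseudogene on chromosome 1. The share was 62.2% for mt-Nd4, 51.1% for mt-Co1, 8.20% for mt-Nd2 and 7.60% for mt-Nd5. It was 0% for mt-Nd1, mt-Nd6, mt-Cytb and mt-Atp8. mt-Atp8 overlaps mt-Atp6 on the same strand. Apart from mt-Atp6 in WT replicate 1, the 5 genes with a share of 98% or more and mt-Atp8 had fewer counts than each of the other genes in every library, so their counts are uncertain as transcript levels. Over the 7 other mRNAs, all 7 log2 fold changes were below 0, with a median of -0.56, and the groups did not overlap for 3, against 3.30% of all genes tested in that direction.

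**Figure D3:**
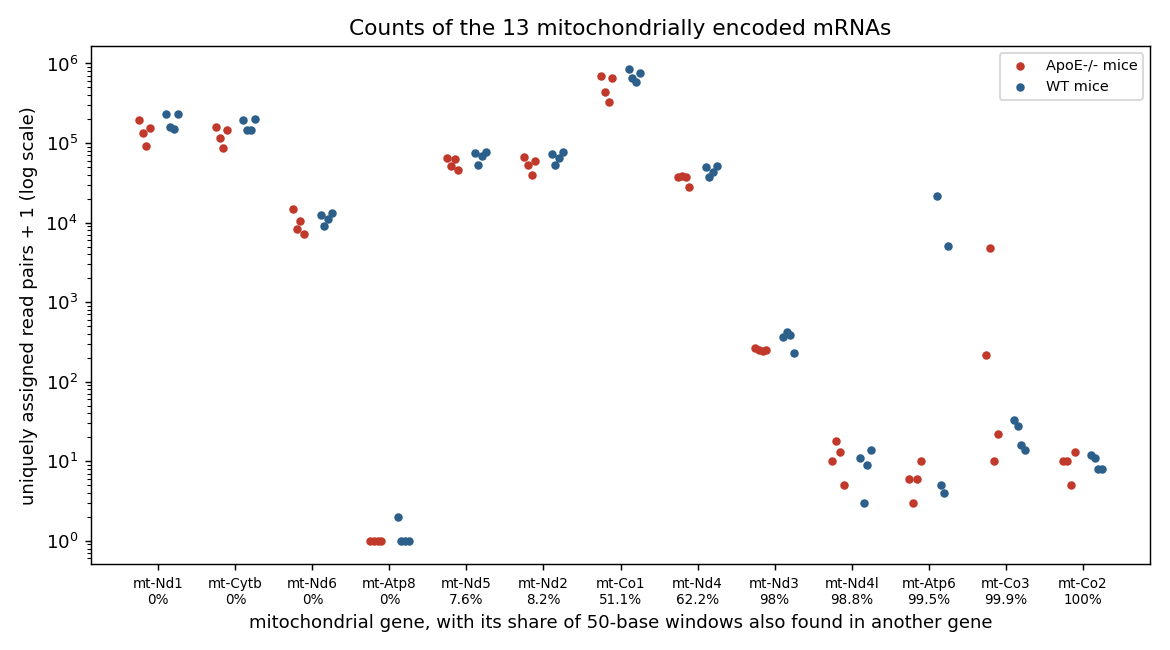
Uniquely assigned read pairs plus 1 (vertical axis, log scale) of the 13 mitochondrial mRNAs in each ApoE-/- (red) and WT (blue) mouse, ordered along the horizontal axis by the share of 50-base windows found in another gene. Genes at 98% or more hold at most 421 pairs, apart from mt-Atp6 in WT replicates 1 and 4 (21280 and 5016) and mt-Co3 in ApoE-/- replicate 2 (4835).

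A few stretches of 90 bases, taken from GENCODE transcripts on GRCm38, set mitochondrial genes beside their nuclear copies. Each is the first aligned stretch of that length with the most mismatches. In each pair, capitals mark the bases that differ between the mitochondrial gene and its copy. The first bases of mt-Atp6 (chrM:7927-8016, plus strand) are identical to those of the pseudogene Gm10925 (chr1:24614562-24614651, minus strand), and over all 678 aligned bases there were 0 mismatches.
mt-Atp6: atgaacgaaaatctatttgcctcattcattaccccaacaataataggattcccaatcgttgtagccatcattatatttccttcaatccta
Gm10925: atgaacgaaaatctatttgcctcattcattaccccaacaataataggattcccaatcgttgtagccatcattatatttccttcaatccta
mt-Co1 (chrM:6381-6470, plus strand) and the copy Gm29216 (chr1:24616108-24616197, minus strand) differ at 6 of these 90 bases. Over the 492 bases of the copy, out of 1545 in the gene, these were the only mismatches, and they lie at the start of the copy.
mt-Co1: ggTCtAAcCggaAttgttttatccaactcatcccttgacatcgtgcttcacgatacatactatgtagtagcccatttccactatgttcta
Gm29216: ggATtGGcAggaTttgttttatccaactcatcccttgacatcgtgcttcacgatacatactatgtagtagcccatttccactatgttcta

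The ratio of mitochondrial to nuclear counts overlapped between the genotypes. The 13 mitochondrial mRNAs together had 4.43, 4.54, 6.08 and 2.87 times the counts of the nuclear subunits in ApoE-/- mice 1 to 4, and 5.004, 6.59, 6.99 and 4.97 times in WT mice 1 to 4. For ApoE-/- mice the mean was 4.48 ± 1.31 (SD, n = 4), and for WT mice 5.89 ± 1.05 (SD, n = 4), and the groups overlapped through ApoE-/- replicate 3. The nuclear subunits took 1.16%, 0.797%, 0.467% and 1.59% of all counts in the ApoE-/- mice and 1.38%, 0.838%, 0.828% and 1.34% in the WT mice. ApoE-/- replicate 4 had the highest nuclear share of the 8 mice and a mitochondrial share below every WT mouse. With only the 7 mRNAs under a 98% window share and above 0 counts in all mice, the ratio was 4.47 ± 1.31 for ApoE-/- mice, against 5.86 ± 1.08 for WT.

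**Figure D4:**
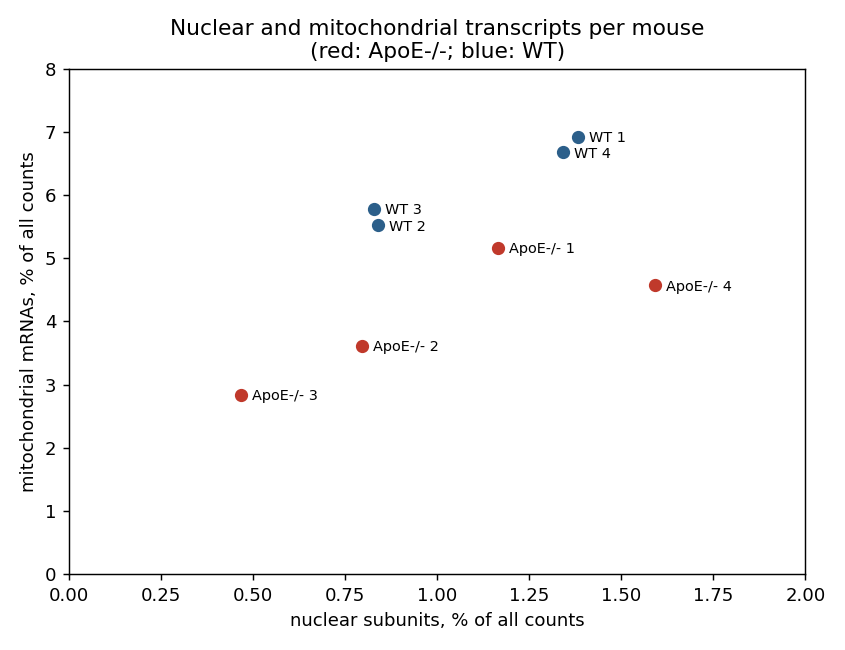
Share of all counts on the nuclear subunits (horizontal axis, %) and on the mitochondrial mRNAs (vertical axis, %) in each ApoE-/- (red) and WT (blue) mouse. Nuclear shares overlap (0.467% to 1.59% and 0.828% to 1.38%), while mitochondrial shares do not (2.84% to 5.16% and 5.52% to 6.92%).

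Of the 3 heart-type isoforms of complex IV, Cox6a2 was lower in ApoE-/- mice and Cox7a1 and Cox8b were not distinguishable between the genotypes. Cox6a2 lies on chromosome 7, 109 Mb from Apoe. It had 35, 1, 8 and 8 read pairs in ApoE-/- mice 1 to 4 and 180, 36, 66 and 86 in WT mice 1 to 4, or 1.42, 0.0437, 0.349 and 0.347 CPM against 8.26, 1.69, 3.66 and 4.12 CPM. Every ApoE-/- mouse was below every WT mouse, and ApoE-/- replicate 1 came close to WT replicate 2. The log2 fold change was -3.01 (SE 0.844, unadjusted p = 0.00706), which did not pass after adjustment in edgeR (adjusted p = 0.172) and did in DESeq2 (adjusted p = 0.00470). Without ApoE-/- replicate 1 the log2 fold change was -4.14 and passed in edgeR (adjusted p = 0.0255). Its partner Cox6a1, the form of most tissues, had a log2 fold change of 0.05 (SE 0.431). Cox6a1 made up 97.2% or more of the summed level per kilobase of the pair in every mouse, so that the heart-type form was the minor one in both genotypes.

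The log2 ratio of Cox6a2 to Cox6a1 counts, with 1 added to each, was -7.62, -11.06, -8.01 and -10.05 in the ApoE-/- mice and -5.14, -6.62, -5.51 and -6.29 in the WT mice. The difference of -3.30 (SE 0.890) had p = 0.0286 in an exact permutation test (two-sided, all 70 assignments of mice), the smallest p that 4 against 4 mice allow. Adjusted over the 5 isoform pairs tested, it was p = 0.143 by the same exact test.

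Most markers of cardiac muscle followed the same mice. Myh6, the alpha myosin heavy chain of cardiac muscle, had 51.3, 1.62, 1.18 and 2.52 CPM in the ApoE-/- mice and 158, 88.6, 105 and 114 CPM in the WT mice. ApoE-/- replicate 1 was the highest of its group and WT replicate 1 the highest of all, for Myh6 as for Cox6a2. Of the 14 genes in the cardiac list, 11 were tested, all 11 had a log2 fold change below 0, 10 had groups that did not overlap (3.30% of all genes tested, lower in ApoE-/- mice) and 0 passed the test in edgeR, while DESeq2 called 6 (1.45% of all genes, lower). The tested gene whose groups overlapped was Ryr2, the calcium release channel of cardiac muscle, at -0.02 (SE 0.310), with 213, 311, 293 and 123 CPM in the ApoE-/- mice and 208, 192, 335 and 215 CPM in the WT mice. The other 13 genes summed to 137, 25.0, 48.3 and 37.9 CPM in the ApoE-/- mice and to 548, 235, 300.2 and 326 CPM in the WT mice. The markers that were not tested, Myl2, Myl3 and Nppb, had at most 0.413, 2.295 and 0.325 CPM in any library. The part of cardiac RNA in the Cox6a2 difference was not tested.

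Cox7a1 had 61.7, 45.1, 13.4 and 116 CPM in the ApoE-/- mice and 99.0, 29.6, 41.2 and 85.5 CPM in the WT mice (log2 fold change -0.11, SE 0.625, adjusted p = 0.970). Cox8b had 165, 135, 37.3 and 324 CPM against 242, 80.5, 107 and 253 CPM (log2 fold change -0.05, SE 0.625, adjusted p = 0.989). In both genes the ApoE-/- group held the highest and the lowest of the 8 mice. With single mice left out the log2 fold change ranged from -0.67 to 0.22 for Cox7a1 and from -0.60 to 0.29 for Cox8b, and both were above 0 without ApoE-/- replicate 3, WT replicate 1 or WT replicate 4. The forms made in most tissues, Cox7a2 and Cox8a, had log2 fold changes of -0.06 (SE 0.364) and 0.02 (SE 0.393).

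Unlike Cox6a2, both genes took large shares of their pairs. Cox7a1 made up 47.4%, 44.7%, 31.4% and 52.3% of the summed level per kilobase of Cox7a1 and Cox7a2 in the ApoE-/- mice and 55.9%, 35.3%, 44.5% and 50.1% in the WT mice. Cox8b made up 56.1%, 60.96%, 42.5% and 63.5% of its pair with Cox8a, and 64.2%, 49.9%, 55.4% and 63.5% in the WT mice. Within each genotype the lowest heart-type share was in the mouse with the lowest median nuclear subunit, ApoE-/- replicate 3 and WT replicate 2. The log2 ratio of Cox7a1 to Cox7a2 differed by -0.15 (SE 0.374, p = 0.686, exact permutation test), and that of Cox8b to Cox8a by -0.15 (SE 0.343, p = 0.686, exact permutation test).

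**Figure D5:**
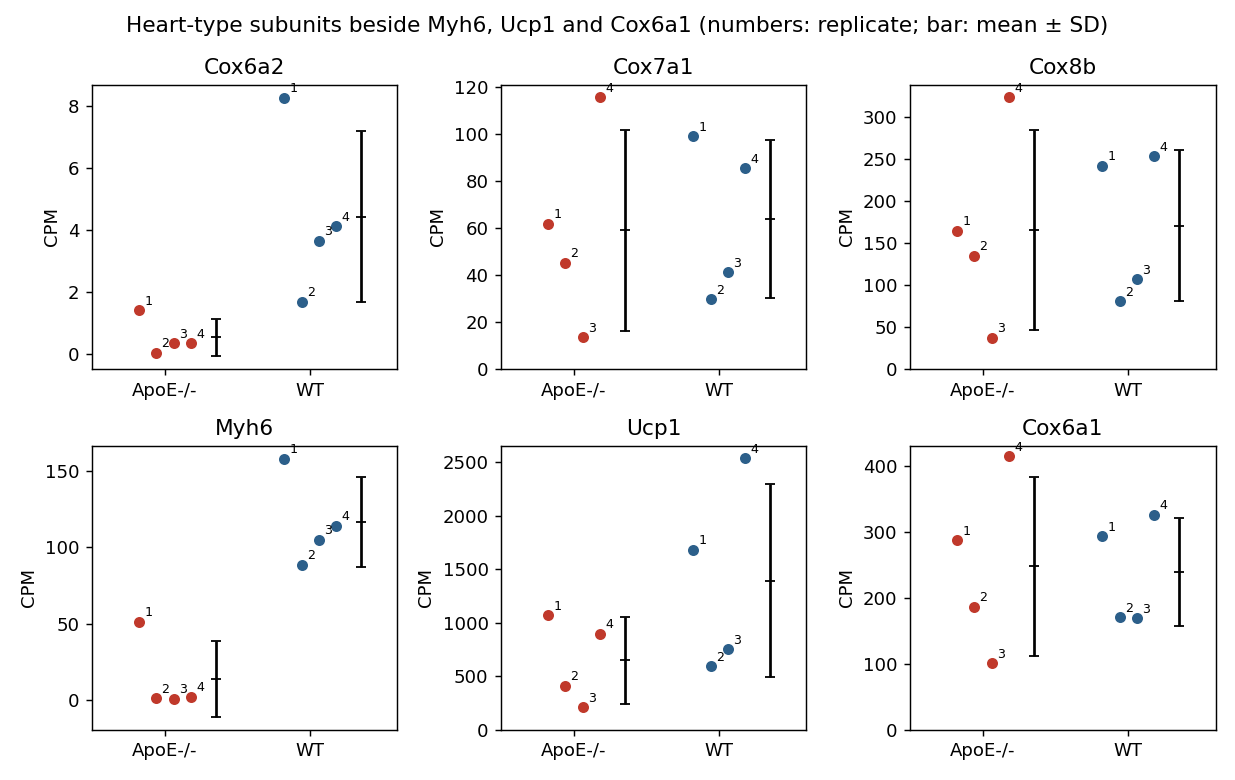
CPM (vertical axes) of Cox6a2, Cox7a1, Cox8b, the cardiac marker Myh6, the brown fat marker Ucp1 and Cox6a1 in each ApoE-/- (red) and WT (blue) mouse, with the replicate number beside each point and bars for the mean ± SD of each group (n = 4). Cox6a2 and Myh6 separate the genotypes, while Cox7a1, Cox8b, Ucp1 and Cox6a1 overlap.

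The promoters of Cox7a1 and Cox8b and of forms made in most tissues are shown because their transcripts swing together over the mice at different sizes. They run from 250 bases before to 50 bases after the start in RefSeq on GRCm38.p6, 5′ to 3′ on the strand of the gene. A promoter was matched for 67 of 82 nuclear subunit symbols, in 72 windows, and Cox6a2, Cox4i1 and Cox4i2 were not among them. Capitals mark any of 6 motifs, searched on both strands: the NRF-1 core GCATGCG, the ETS core CCGGAAG (bound by GABP, also called NRF-2), the estrogen-related receptor half-site AAGGTCA, the TATA box TATAAA, the E-box CAGCTG and the GC box GGGCGG. None of these motifs holds another.
Cox7a1 (chr7:30183921-30184220, plus strand): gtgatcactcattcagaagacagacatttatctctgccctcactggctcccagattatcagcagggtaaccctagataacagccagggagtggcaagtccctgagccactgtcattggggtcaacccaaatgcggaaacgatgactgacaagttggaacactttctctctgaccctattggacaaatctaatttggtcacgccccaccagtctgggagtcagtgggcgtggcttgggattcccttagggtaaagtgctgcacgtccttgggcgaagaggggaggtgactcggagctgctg
Cox7a2 (chr9:79759804-79760103, minus strand): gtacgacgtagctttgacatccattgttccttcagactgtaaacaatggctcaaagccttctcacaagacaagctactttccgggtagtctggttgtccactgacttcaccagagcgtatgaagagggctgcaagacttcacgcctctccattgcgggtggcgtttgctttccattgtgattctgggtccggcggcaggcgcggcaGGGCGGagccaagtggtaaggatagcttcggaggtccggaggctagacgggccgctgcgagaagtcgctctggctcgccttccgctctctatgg
Cox8b (chr7:140900397-140900696, minus strand): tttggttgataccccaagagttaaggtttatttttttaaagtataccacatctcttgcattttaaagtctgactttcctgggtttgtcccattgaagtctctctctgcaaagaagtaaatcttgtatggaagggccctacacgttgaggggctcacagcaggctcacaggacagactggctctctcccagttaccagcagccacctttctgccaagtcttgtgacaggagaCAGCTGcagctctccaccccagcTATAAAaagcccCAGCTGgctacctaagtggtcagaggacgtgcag
Cox8a (chr19:7217567-7217866, minus strand): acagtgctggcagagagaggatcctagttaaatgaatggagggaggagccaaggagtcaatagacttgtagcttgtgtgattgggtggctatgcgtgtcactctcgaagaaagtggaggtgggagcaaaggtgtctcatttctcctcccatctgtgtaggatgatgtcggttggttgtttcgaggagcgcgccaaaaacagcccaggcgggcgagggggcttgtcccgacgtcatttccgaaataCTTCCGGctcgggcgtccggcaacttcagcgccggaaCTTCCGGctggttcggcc
Cox6a1 (chr5:115348909-115349208, minus strand): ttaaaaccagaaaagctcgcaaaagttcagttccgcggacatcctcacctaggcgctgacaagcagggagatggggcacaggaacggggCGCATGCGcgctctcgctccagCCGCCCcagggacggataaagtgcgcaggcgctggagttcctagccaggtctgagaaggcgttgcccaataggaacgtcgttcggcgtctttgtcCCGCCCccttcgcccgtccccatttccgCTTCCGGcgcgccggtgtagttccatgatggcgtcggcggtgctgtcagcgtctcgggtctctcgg

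The promoters of Cox7a1 and Cox8b were poorer in CpG than those of their partners. Cox7a1 held 7 CpG and Cox8b 2, against 20 in Cox7a2, 19 in Cox8a and 32 in Cox6a1. The median was 19.5 over the windows of nuclear subunits and 7 over all 32851 promoters in the table. Cox8b had a TATA box and 2 E-boxes, Cox8a had 2 ETS cores, Cox6a1 had an NRF-1 core, an ETS core and 2 GC boxes, and Cox7a2 had 1 GC box. Cox7a1 had no match to these letters in this window. Over the nuclear subunits, 23.6% of windows held an ETS core, against 8.86% of all promoters, and 15.3% held the NRF-1 core, against 3.58%. The half-site was in 11.1% against 4.72%, the GC box in 37.5% against 35.7%, the TATA box in 11.1% against 13.6% and the E-box in 8.30% against 16.3%. A match is a description of the letters and does not show binding.

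The remaining pairs of alternative subunits did not differ between the genotypes beyond their spread. Cox4i2, the oxygen-responsive form of subunit 4 that is made mainly in lung, had 1.54, 2.14, 4.18 and 2.73 CPM in the ApoE-/- mice and 2.94, 3.28, 3.93 and 2.73 CPM in the WT mice (log2 fold change -0.28, SE 0.314). It made up 0.918% to 5.55% of the summed level per kilobase with Cox4i1 in ApoE-/- mice and 1.29% to 2.93% in WT mice, with the highest share in ApoE-/- replicate 3. Ndufa4l2, which is related to Ndufa4 and is induced by hypoxia, had a log2 fold change of -0.38 (SE 0.207, adjusted p = 0.580). Ndufa4, grouped here with complex I by its name although the protein has been found in complex IV, was at -0.09 (SE 0.444). Ndufa4l2 made up 2.99% to 7.99% of its pair in ApoE-/- mice and 3.68% to 6.33% in WT mice. The log2 ratios of Cox4i2 to Cox4i1 and of Ndufa4l2 to Ndufa4 differed by -0.12 (SE 0.686) and -0.155 (SE 0.383), with p = 0.914 and 0.771 in the exact permutation test.

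The 9 assembly factors, Ndufaf1 to Ndufaf8 and Cox7a2l, which joins complexes III and IV, had log2 fold changes from -0.19 to 0.13 with a median of 0.01, or -0.07 without ApoE-/- replicate 1. The smallest adjusted p among them was 0.797. Of the testis-type isoforms, Cox6b2 had 22 to 74 read pairs per library and a log2 fold change of -0.61 (SE 0.358, adjusted p = 0.629), while Cox7b2 and Cox8c had 0 in every library. A second gene identifier for Atp5o also had 0 pairs, and 89.8% of its windows occur in another gene. Cox5b-ps shares 61.9% of its windows with Cox5b, so its 601 to 1835 read pairs are uncertain.

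Other mitochondrial lists gave no calls in edgeR. For the nuclear citric acid cycle genes, 16 of 17 had a log2 fold change below 0 (median -0.15, or -0.25 without ApoE-/- replicate 1), and for fatty acid oxidation 16 of 17 (median -0.37). The order of the mice partly matched that of the nuclear subunits. All 17 citric acid cycle genes and 16 of 17 fatty acid oxidation genes had their lowest value in ApoE-/- replicate 3, and for 16 and 13 of them the 4 highest mice were replicates 1 and 4 of both genotypes. Only 11 citric acid cycle and 6 fatty acid oxidation genes had their highest value in ApoE-/- replicate 4. For mitochondrial DNA expression and biogenesis, 22 of 24 tested genes were below 0 (median -0.18). The lowest of these was Ppargc1a, a coactivator that drives mitochondrial biogenesis, with 47.9, 21.9, 28.6 and 38.7 CPM in the ApoE-/- mice and 42.6, 69.98, 63.2 and 122 CPM in the WT mice (log2 fold change -1.12, SE 0.355, adjusted p = 0.237). DESeq2 called it as the only gene of that list, against 4.29% of all genes, and 1.45% as lower. Tfam, which packages mitochondrial DNA and activates its transcription, was at -0.11 (SE 0.150), and Polrmt, the mitochondrial RNA polymerase, at -0.18 (SE 0.154). The assembly list beyond the members was centred at 0.01, with 22 of 39 genes above 0, and the mitochondrial ribosome at 0.00, with 39 of 77 above 0. Without ApoE-/- replicate 1 these medians were -0.08 and -0.07. In the assembly list the lowest was Cox17, a copper chaperone for complex IV, at -0.61 (SE 0.205, adjusted p = 0.266). It was the only 1 of the 39 tested genes whose groups did not overlap, against 3.30% of all genes tested as lower. Of 3 further carriers and subunits, Cyc1, cytochrome c1 of complex III, was at -0.28 (SE 0.397), Cycs, cytochrome c, at -0.64 (SE 0.359) and Atpif1, the inhibitor of complex V, at 0.32 (SE 0.273).

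Of the marker lists for other cells of the aorta, only that for macrophages held calls in edgeR. It summed to 671 to 3209 CPM in the ApoE-/- group, against 397 to 554 CPM in WT. All 15 genes had a log2 fold change above 0, and the groups did not overlap for 14, against 5.41% of all genes tested as higher. edgeR called 3, namely Fcgr1, Mpeg1 and Trem2, against 0.371% of all genes as higher, and DESeq2 called 11, against 2.84%. The endothelial list summed to 2208 to 3110 CPM against 3120 to 3644 CPM, with 13 of 14 genes below 0 and groups that did not overlap for 7, against 3.30% of all genes. In this list edgeR called 0 genes and DESeq2 7, all with lower values, against 1.45% of all genes as lower. The fibroblast list summed to 4492 to 11930 CPM against 4509 to 5116 CPM, with 0 calls in edgeR and 2 in DESeq2 (2.84% of all genes, higher), and the groups overlapped through ApoE-/- replicate 1. The contractile smooth muscle list also overlapped, at 6048 to 26570 CPM against 13760 to 25770 CPM, with 0 calls by either tool. The skeletal muscle list was low, at 23.0 to 48.5 CPM against 30.4 to 52.0 CPM, with 0 calls in edgeR and 1 in DESeq2, Ckm (log2 fold change -1.54 in edgeR, adjusted p = 0.00757 by DESeq2). The kidney tubule list was low as well, at 5.14 to 15.9 CPM against 6.38 to 34.4 CPM, with 0 calls by either tool. The part of these lists, and of the brown adipocyte list, in the lower mitochondrial mRNAs was not tested.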

How the data were processed

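RNA from the aortas of 4 ApoE-/- and 4 WT mice was sequenced as 1 library per mouse of ribodepleted, stranded total RNA, read as pairs of 50 bases. The authors deposited raw counts of uniquely assigned read pairs per gene, without normalization and without pooling of replicates. The submitters' processing notes name TopHat2, HTSeq and GRCm38 (mm10), and their versions were not given in the sources used here. Pairs that the files do not assign to a gene made up 64.4% to 67.7% of all pairs in ApoE-/- mice and 69.8% to 72.1% in WT mice. They stayed out of every step. Coordinates came from GENCODE M21, which held 21817 of 21859 gene identifiers.

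Genotypes were taken from the sample labels. The low-count filter was filterByExpr (edgeR 4.0.16, R 4.3.3), and TMM factors and the quasi-likelihood F test (robust) were applied to all 15077 genes, with Benjamini-Hochberg adjustment and a threshold of 0.05. Standard errors were derived from each log2 fold change and its F value. Sums over lists and CPM use TMM-scaled library sizes, while shares of counts do not. Ratios of isoform counts, with a pseudocount of 1, were compared by two-sided exact permutation tests with scipy 1.17.1. Alternatives were DESeq2 1.42.0, limma-voom (limma 3.58.1), other scaling factors and filters, no robust estimation, a replicate block and leaving out each mouse. The edgeR script was tested on simulated counts. Windows of 50 bases were searched in all GENCODE M21 transcripts and their reverse complements.

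The members and the lists were chosen with earlier results of these data known. Named genes were Apoe, the isoform pairs, all mitochondrial mRNAs, set core subunits and, in each complex, those with the highest and lowest log2 fold change and the smallest p. Ucp1, Cidea, Prdm16, Myh6, Ryr2 and genes named in the lists beyond these were chosen after their values were seen, as were the genes at both ends of the order of levels. Labels do not say that mice with the same number are related. Counting without molecular identifiers means that the depth limits only counting error.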

Additional observations from a re-analysis of the deposited data

Results flagged for a closer look

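Of 96 groups of 4 mice checked, 3 held a mouse whose gap to the next value, as a share of the group's range, was above Dixon's 95% critical value, and chance gives about 1 in 20. For mt-Co3 the gap was 0.961 of the range, with 211 CPM in ApoE-/- replicate 2 and 0.392 to 8.65 CPM in the other ApoE-/- mice. For mt-Atp8 it was 1.00, from a single read pair in WT replicate 1. For Atp5g1 it was 0.941, with 17.5 CPM in ApoE-/- replicate 1 and 6.71 to 7.35 CPM in the others.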

How the results depend on the processing

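The count of all genes called moved from 70 to 721 with DESeq2, 29 with limma-voom and 2 with the replicate block, and ranged from 0 to 593 when single mice were left out (593 without ApoE-/- replicate 1, 17 without replicate 2, 0 without replicate 3 and 2 without replicate 4, and 2, 0, 1 and 0 without WT replicates 1 to 4). At an unadjusted p under 0.05 those fits held 1269 to 2826 genes. The count of members called moved from 0 to 4 with DESeq2 and ranged from 0 to 1 with single mice left out. Cox6a2 passed with DESeq2 (log2 fold change -3.06, adjusted p = 0.00470) and without ApoE-/- replicate 1. Over single mice left out its log2 fold change ranged from -4.14 to -2.52 and its adjusted p from 0.0255 to 0.3995, and over 8 further settings the adjusted p ranged from 0.00470 to 0.187, while the filter of 10 counts in every library removed the gene. The isoform ratio Cox6a2 to Cox6a1 ranged from -3.82 to -2.67 with single mice left out, where 3 against 4 mice cannot go below p = 0.0571 in the exact test. The median of the nuclear subunits ranged from -0.42 to 0.12 with single mice left out, lowest without ApoE-/- replicate 4 and above 0 without ApoE-/- replicate 3 or WT replicate 1 or 4, and from -0.21 to -0.10 over the other settings, and that of the mitochondrial mRNAs from -0.60 to -0.43. The mean log2 ratio of mitochondrial to nuclear counts (ApoE-/- minus WT, -0.43) ranged from -0.59 to -0.23. Over all genes tested, the same-numbered mice correlated at 0.06, -0.45, 0.32 and 0.16 in their deviations from the group mean. These values cannot show whether mice of one number shared a batch. Under the replicate block 0 members were called. The alternative that adds mitochondrial rRNA and tRNA was not run, since the 13 genes matched by mt- were all mRNAs. Cox6a2, with 1 to 35 pairs in ApoE-/- mice, is at the limit of depth.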
